A study of Mus musculus with 4 samples.

Results

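The MHC class I presentation pathway was examined through 10 of its genes, out of the 32285 genes measured in single cells from mouse MC38 tumors. The members were taken by symbol: the heavy chains H2-K1, H2-D1 and H2-T23, the light chain B2m, the peptide transporter subunits Tap1 and Tap2, the loading factor Tapbp, the immunoproteasome subunits Psmb8 and Psmb9, and the transcriptional activator Nlrc5. All 10 symbols were in the count matrices, and no measured value entered the rule.

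Class I molecules carry short peptides from inside a cell to its surface, where CD8+ T cells read them. The peptides are cut by the proteasome, into which interferon gamma brings the subunits encoded by Psmb8 and Psmb9, and are pumped into the endoplasmic reticulum by the TAP transporter, where tapasin, the product of Tapbp, holds the empty class I molecule until a peptide fits. CD8+ T cells see little of a tumor cell that presents little class I, while natural killer (NK) cells are held back by class I.

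MC38 is a colon carcinoma line from C57BL/6 mice. Wild-type (WT) RAC1 cells and cells carrying a CRISPR knock-in of the RAC1 A159V change (clone 9, a single clone) were grown under the skin of C57BL/6 mice aged 6 to 8 weeks. The mice were given 100 µg of anti-PD1, an antibody that blocks a T cell checkpoint receptor, or of its IgG isotype control every 3 days from day 3. Tumors were taken on day 13 and dissociated, and CD45+ and CD45- cells were mixed at 2 parts to 1. WT tumors gave the groups WT IgG and WT anti-PD1, mutant tumors gave A159V IgG and A159V anti-PD1, and each of these 4 groups was 1 library. A difference between groups therefore had no replicate check and no p-value was computed, and genotype, clone and library cannot be told apart. Intervals given with values are 95% intervals for counting error alone.

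The libraries held 7430 to 9311 barcodes and 54402632 to 125227747 unique molecular identifiers (UMIs), and 52 to 55 barcodes of each library also occurred in another one. Clustering of the 6466 to 8248 cells analysed per library gave 2021 tumor-like cells in WT IgG, 2807 in A159V IgG, 2095 in A159V anti-PD1 and as few as 14 in WT anti-PD1, a profile given here as values only. Where 3 tumor-like values are listed below, they stand in the order WT IgG, A159V IgG, A159V anti-PD1. Tumor-like cells were named from Rhox5, Prl2c2 and Prl2c3, the 3 detected of 9 tumor markers. The epithelial markers Krt7, Krt8, Krt18, Krt19, Krt20 and Epcam were at or under 0.32 CPM (UMIs of a gene per 1000000 UMIs of the summed cells of a class) in these cells, so the defining markers of an epithelial cell were at or near 0. The share of immune RNA in tumor-like cells, estimated from 8 macrophage genes, was 0.338%, 0.247% and 0.337%.

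RefSeq promoter windows on GRCm38.p6, from 250 bases before to 50 after the start of transcription, were held for 8 of the 10 members. Interferon-inducible class I promoters are known for a kB element, an interferon regulatory factor element and a cyclic AMP response (CRE) element close to the start. Matches were searched on both strands with the letters GGG, any 2 bases and TTCCC (kB), AANNGAAA (interferon regulatory factor) and TGACG (CRE), and no match overlapped another in these windows. The kB letters were found in H2-K1 and H2-D1 and in 1.75% of all 32851 promoters. The interferon regulatory factor letters were found in 4 of the 8 members, namely H2-K1, H2-D1, H2-T23 and B2m, and in 23.9% of all promoters. The CRE letters were found in 5 of the 8, namely H2-K1, H2-D1, B2m, Tap1 and Psmb9, and in 20.8% of all promoters. The 250 bases before the start are shown for the 3 heavy chains, because H2-T23 differed from the other two in the data below, and for B2m and Tap1, whose levels were lower with those of H2-K1 and H2-D1 in A159V IgG tumor-like cells. Capitals mark the matches. H2-K1 is read from chr17:34000348-34000597 (minus strand), H2-D1 from chr17:35262844-35263093 (plus strand), H2-T23 from chr17:36032702-36032951 (minus strand), B2m from chr2:122147437-122147686 (plus strand) and Tap1 from chr17:34187306-34187555 (plus strand).
H2-K1: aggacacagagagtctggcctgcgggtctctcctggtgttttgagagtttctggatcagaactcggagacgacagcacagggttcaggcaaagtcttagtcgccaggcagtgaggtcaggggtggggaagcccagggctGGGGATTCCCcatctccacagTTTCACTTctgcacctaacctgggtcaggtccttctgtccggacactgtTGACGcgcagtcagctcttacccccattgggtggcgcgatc
H2-D1: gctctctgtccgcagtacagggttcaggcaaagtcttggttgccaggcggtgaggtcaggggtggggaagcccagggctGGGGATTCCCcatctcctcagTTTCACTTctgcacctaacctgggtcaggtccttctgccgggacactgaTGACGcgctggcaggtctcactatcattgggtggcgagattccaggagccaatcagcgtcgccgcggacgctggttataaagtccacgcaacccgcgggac
H2-T23: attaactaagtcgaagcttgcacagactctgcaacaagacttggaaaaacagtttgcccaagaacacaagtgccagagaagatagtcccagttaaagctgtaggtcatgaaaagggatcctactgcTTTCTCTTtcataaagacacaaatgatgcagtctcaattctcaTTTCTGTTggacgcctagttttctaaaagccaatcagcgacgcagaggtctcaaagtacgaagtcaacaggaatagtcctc
B2m: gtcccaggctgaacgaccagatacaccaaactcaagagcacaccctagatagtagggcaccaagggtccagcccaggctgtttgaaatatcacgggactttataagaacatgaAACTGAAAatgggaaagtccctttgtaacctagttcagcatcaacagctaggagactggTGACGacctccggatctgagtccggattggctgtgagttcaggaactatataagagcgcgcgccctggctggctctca
Tap1: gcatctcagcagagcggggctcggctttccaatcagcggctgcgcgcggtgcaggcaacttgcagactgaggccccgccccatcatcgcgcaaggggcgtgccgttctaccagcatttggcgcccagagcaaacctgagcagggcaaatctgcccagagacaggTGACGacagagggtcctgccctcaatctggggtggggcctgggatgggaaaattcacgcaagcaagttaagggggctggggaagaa

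In H2-K1 and H2-D1 the 3 kinds of match stood in the same order, and the kB letters began 21 bases before the interferon regulatory factor letters and 70 bases before the CRE letters in both. H2-T23 had 2 interferon regulatory factor matches and no match of the other kinds in its window. Tap1 and Psmb9 are neighbours read in opposite directions whose windows share 275 bases, so the 1 CRE match of Psmb9 is the one shown for Tap1. No match of the 3 kinds was found in the windows of Tapbp and Psmb8, and a match describes letters, not binding. The starts used for Tapbp (chr17:33919478), Psmb8 (chr17:34198195), H2-D1 (chr17:35263094), Psmb9 (chr17:34187330) and H2-T23 (chr17:36032701) lay well inside the gene spans given below. The bases before the outer start of those spans were therefore not searched for Tapbp, Psmb8, H2-D1 and Psmb9. For H2-T23 they were searched only in part.

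On GRCm38, H2-K1 lies at chr17:33996017-34000347, H2-D1 at chr17:35262730-35267499 and H2-T23 at chr17:36029773-36032855. Tapbp (chr17:33915899-33929292), Psmb9 (chr17:34181987-34187764), Tap1 (chr17:34187553-34197225), Psmb8 (chr17:34197721-34201454) and Tap2 (chr17:34203527-34216321) lie in the same region of chromosome 17. B2m (chr2:122147686-122153083) and Nlrc5 (chr8:94434356-94527272) lie elsewhere. Counts were taken at the 3′ ends of transcripts, so levels were compared between cells and libraries for 1 gene at a time, not between genes. Reads that matched more than 1 gene were not counted, so the values of H2-K1, H2-D1 and other near-identical heavy chains are uncertain where their sequences are shared.

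The first comparison asked how the class I genes of tumor-like cells differed between A159V IgG and WT IgG tumors. H2-K1, H2-D1, B2m, Tap1, Tap2, Tapbp, Psmb8, Psmb9 and Nlrc5 were all lower in A159V IgG, by 1.5-fold to 1.8-fold, and H2-T23, at very low counts, was higher. Of the 9 members that reached 10 CPM in either library, 9 were lower by 1.5-fold or more, where 11.6% of the 8910 genes tested were lower and 5.67% higher by that much. The median log2 ratio of the 9 was -0.62, against -0.02 over all genes tested. The 9 ratios lay at the percentiles 5.99 (Psmb9) to 11.5 (B2m) of all genes, near the limit of 1.5-fold rather than at the far end of the distribution. The 9 stayed below 0 under every other setting tried, but the number past 1.5-fold fell to 5 with a pseudocount of 10 CPM, to 3 with median-of-ratios scaling, to 2 when libraries were clustered separately and to 0 where tumor-like cells were gated by markers.

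H2-K1 and H2-D1 encode the classical heavy chains, which hold the peptide. H2-K1 was at 2540 CPM (2528 to 2552) in WT IgG, at 1577 (1569 to 1585) in A159V IgG and, after anti-PD1, at 1919 (1910 to 1928) in A159V tumors. Its log2 ratio for the 2 IgG libraries, A159V over WT, was -0.69 (-0.70 to -0.68). H2-D1 was at 1621, 1036 and 1146 CPM, a log2 ratio of -0.65 (-0.66 to -0.63). Both genes were highest in WT IgG and lowest in A159V IgG, with A159V anti-PD1 between them. B2m, the light chain that every class I heavy chain needs at the surface, was at 1548, 1031 and 1273 CPM, a log2 ratio of -0.59 (-0.60 to -0.57) and the smallest fold of the 9.

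The transporter subunits followed the same order of libraries. Tap1 was at 125, 81.7 and 120 CPM, and Tap2 at 103, 58.3 and 84.9 CPM. Their log2 ratios between the IgG libraries were -0.61 (-0.65 to -0.56) and -0.80 (-0.86 to -0.75). Tapbp was at 274, 181 and 281 CPM, a log2 ratio of -0.60 (-0.63 to -0.57). Tapbp was thus lowest in A159V IgG, while its level in A159V anti-PD1 was slightly above that in WT IgG.

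Psmb9, an interferon-induced catalytic subunit of the immunoproteasome, had the largest fold of the 9. It was at 221, 123 and 165 CPM, a log2 ratio of -0.85 (-0.88 to -0.81). Psmb8, the other immunoproteasome subunit among the members, was at 292, 190 and 228 CPM, a log2 ratio of -0.62 (-0.65 to -0.59). Nlrc5, which switches on class I genes at their promoters, was at 65.9, 43.0 and 66.8 CPM, a log2 ratio of -0.61 (-0.67 to -0.54), with A159V anti-PD1 at the level of WT IgG within counting error.

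H2-T23 encodes Qa-1, a nonclassical heavy chain known as a ligand of the inhibitory receptor NKG2A on NK and T cells. Its level was 3.37 CPM (2.94 to 3.85), 8.50 CPM (7.91 to 9.13) and 6.54 CPM (6.02 to 7.09), lowest in WT IgG. The 3 intervals did not overlap, and the log2 ratio between the IgG libraries was 1.12 (0.95 to 1.29). These levels were under the 10 CPM needed to enter the counts above. At the measured shares of immune RNA, that RNA would give 28.8%, 6.15% and 12.3% of the H2-T23 level. With that RNA subtracted the log2 ratio between the IgG libraries was 1.40, and with predicted doublets kept it was 0.46. For every other member it would give at most 1.09% of the tumor-like level.

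**Figure D1:**
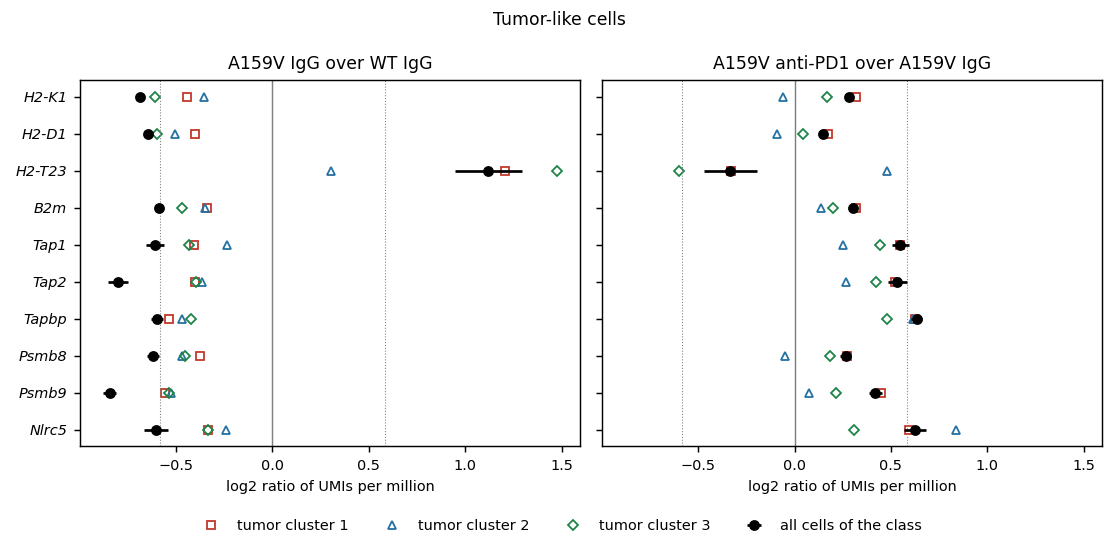
Log2 ratio of each member in tumor-like cells, A159V IgG over WT IgG (left) and A159V anti-PD1 over A159V IgG (right). Black points with bars are all tumor-like cells with the 95% interval for counting error, coloured points are the 3 tumor-like clusters, and dotted lines mark 1.5-fold. On the left, 9 members lie from -0.85 to -0.59 and H2-T23 at 1.12. The coloured points of these 9 each lie closer to 0 than the black point of the same gene, the nearest at -0.24.

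The tumor-like cells fell into 3 clusters, formed without the members and the pathway genes, whose shares differed between the libraries. Cluster 1, high in Prl2c2 and Prl2c3, held 34.4%, 81.9% and 76.2% of tumor-like cells. Cluster 2, with more Col6a1 and Edil3, held 61.2%, 7.55% and 8.97%, and cluster 3, high in the interferon-induced chemokine gene Cxcl10, held 89, 295 and 310 cells. The 9 members were higher in cluster 2 than in cluster 1 of the same library in each of the 3 libraries. H2-K1 in WT IgG, for example, was at 2058 CPM in cluster 1, 2893 in cluster 2 and 2664 in cluster 3.

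Comparing A159V IgG with WT IgG inside each cluster gave smaller differences in the same direction. The 9 members were below 0 in all 3 clusters, with median log2 ratios of -0.40, -0.37 and -0.45 in clusters 1, 2 and 3, against 0.05, 0.11 and 0.08 over all genes tested. None of the 9 was lower by 1.5-fold in cluster 1 or cluster 2, where 3.98% and 5.64% of all genes were. In cluster 3, H2-K1 (-0.61) and H2-D1 (-0.60) passed, where 5.24% of all genes did. The count of 9 past 1.5-fold therefore held for all tumor-like cells together and not within clusters. H2-K1 inside cluster 1 was at 2058, 1514 and 1887 CPM. H2-T23 had log2 ratios of 1.21, 0.30 and 1.48 in the 3 clusters, and the interval of the second, which rests on 21 UMIs in A159V IgG, reached from -0.24 to 0.85.

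The level per cell was spread widely. For H2-K1 the range in UMIs was widest in WT IgG, where the mean was also highest. With every cell thinned to 10000 UMIs, the median tumor-like cell had 24, 15 and 18 H2-K1 UMIs. The 10th and 90th percentiles of cells were 12 and 46 UMIs in WT IgG, against 8 and 26 for A159V IgG, and 10 and 30 after anti-PD1 in A159V tumors. The variance over the mean was 7.08, 4.17 and 3.41, and the mean was 27.0, 16.2 and 19.4 UMIs. Both the range and the variance over the mean can rise with the mean, so they do not measure spread relative to it. The 90th percentile in A159V IgG was thus close to the median in WT IgG, and the ranges overlapped. H2-D1 had medians of 15, 10 and 11 UMIs, and B2m of 15, 10 and 12.

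Across cells within a library, H2-D1 and B2m varied with H2-K1 more closely in WT IgG. Spearman's rho with H2-K1 was 0.75 for H2-D1 and 0.61 for B2m over 1851 cells of WT IgG. It was 0.53 and 0.38 over 2622 cells of A159V IgG, and 0.51 and 0.36 over 1956 cells after anti-PD1 in A159V tumors. For Nlrc5, at under 1 UMI per cell on average, it was 0.05, 0.02 and 0.00. These are descriptions over cells that share a library.

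**Figure D2:**
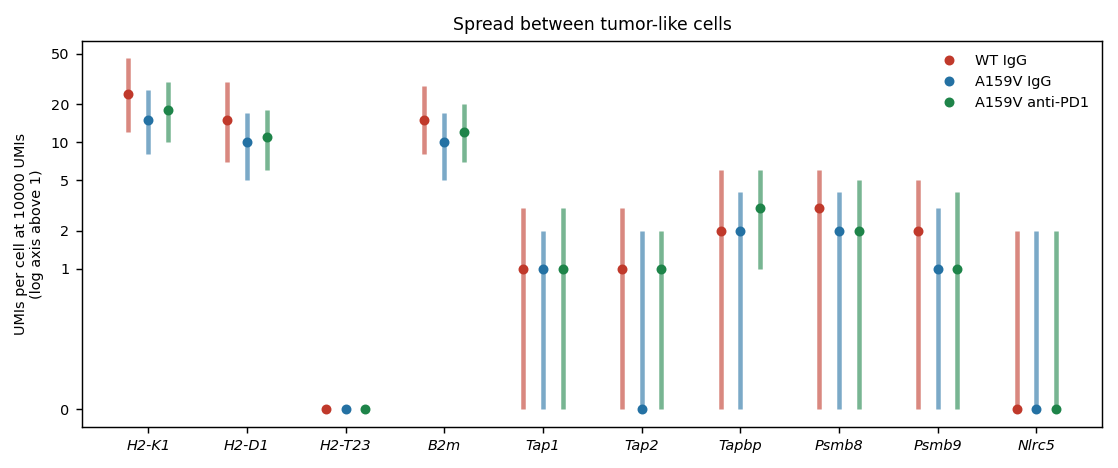
UMIs of each member per tumor-like cell after thinning every cell to 10000 UMIs, for WT IgG, A159V IgG and A159V anti-PD1. The point is the median cell and the bar runs from the 10th to the 90th percentile of cells. For H2-K1 the bar runs from 12 to 46 in WT IgG and from 8 to 26 in A159V IgG.

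The share of tumor-like cells with a UMI was compared after thinning each cell to 1500 UMIs, which left out 9 to 20 tumor-like cells and 407 to 991 immune cells per library. H2-K1 was seen in 94.3%, 86.9% and 91.9% of cells. B2m was seen in 87.9%, 77.4% and 83.4%, H2-D1 in 86.5%, 76.9% and 78.7%, and Psmb9 in 28.0%, 15.2% and 18.6%. Without thinning, H2-K1 was seen in 99.7%, 99.9% and 99.8% of cells, so nearly every tumor-like cell of these libraries had H2-K1 RNA. Thinned to 3000 UMIs, Psmb9 was seen in 44.8%, 30.3% and 35.2% of cells, so these shares depend on the depth chosen. H2-T23 was seen in 0.299%, 1.47% and 1.06% of thinned tumor-like cells, against 25.4% to 32.3% of thinned immune cells, and at 3000 UMIs in 0.805%, 3.03% and 1.71%.

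Anti-PD1 in A159V tumors went with higher class I levels in tumor-like cells. The same 9 members were above 0 for A159V anti-PD1 over A159V IgG, with a median log2 ratio of 0.42 against 0.08 over all genes. Tapbp (0.63, 0.61 to 0.66) and Nlrc5 (0.63, 0.57 to 0.68) were higher by 1.5-fold or more, where 0.651% of the 8606 genes tested were higher and 0.453% lower by that much. Tap1 (0.55) and Tap2 (0.53) came next, then Psmb9 (0.42), B2m (0.30), H2-K1 (0.28), Psmb8 (0.26) and H2-D1 (0.15). The loading and transport genes thus differed more than the heavy chains. H2-T23 went the other way, at -0.33 (-0.47 to -0.20). This comparison and the one before share the A159V IgG library.

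Within tumor-like clusters the medians were 0.45, 0.14 and 0.21. In cluster 1, 9 of 9 were above 0 and 2, Tapbp (0.63) and Nlrc5 (0.59), were higher by 1.5-fold, where 0.668% of genes were. In cluster 2, with 188 and 212 cells, 6 of 9 were above 0, Tapbp (0.62) and Nlrc5 (0.84) were higher by 1.5-fold where 1.76% of genes were, and H2-K1 (-0.06), H2-D1 (-0.09) and Psmb8 (-0.05) were below 0. In cluster 3, 9 of 9 were above 0 and none was higher by 1.5-fold, where 0.601% of genes were.

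The 14 tumor-like cells of WT anti-PD1 held 515016 UMIs. H2-K1 was at 3204 CPM (3051 to 3362) in them, B2m at 2078 (1955 to 2206), Tap1 at 297 (252 to 348), Tapbp at 577 (513 to 646) and Psmb8 at 237 (197 to 283). H2-T23 had 0 UMIs, which allows up to 5.83 CPM. Too few cells were captured for a comparison. Of the markers that named the class, Rhox5 was at 390 CPM in them against 953 to 1100 CPM in the other libraries. Prl2c2 was at 536 CPM against 202 to 597 CPM, and Prl2c3 at 266 CPM against 38.6 to 465 CPM.

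Genes that work with the members were described from 4 lists. Among 13 other class I heavy chains and relatives, 3 were high enough to test in tumor-like cells, and 2 of these were lower in A159V IgG by 1.5-fold, where 11.6% of all genes were, H2-Q4 (-0.97) and H2-T22 (-0.85), both nonclassical heavy chains. H2-M3, which presents formylated peptides, was at -0.44. Among 14 genes of interferon gamma signaling and class I transcription, 12 were tested and 6 were lower by 1.5-fold, against the same 11.6% of all genes, with a median of -0.58. Irf1, the transcription factor that interferon gamma induces, was at -0.78 and its feedback inhibitor Socs1 at -0.76. The other 4, named after their values were seen, were Ifngr1 (-0.75), Irf2 (-0.67), Cd274 (-0.63) and Stat2 (-0.63). Ifngr2, the second chain of the interferon gamma receptor, was at 0.12 and Rfxap, a subunit of the RFX promoter complex, at 0.45.

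Inside the tumor-like clusters, whose shares differed between the libraries, both lists had medians closer to 0. Of the interferon genes, none of 12 was lower by 1.5-fold in cluster 1, 3 of 13 in cluster 2 (Irf1, Socs1 and Rfx5) and 2 of 13 in cluster 3 (Rfx5 and Cd274), where 3.98%, 5.64% and 5.24% of all genes were. Their medians were -0.16, -0.35 and -0.21 in clusters 1, 2 and 3. Irf1 was at -0.46, -0.71 and -0.20 in clusters 1, 2 and 3, and Socs1 at -0.40, -0.59 and -0.50. Ifngr1, which encodes the first chain of the interferon gamma receptor, was at -0.29, -0.16 (-0.38 to 0.05) and -0.42, past 1.5-fold in none of them. Of the 3 heavy chains tested, H2-Q4 (-0.66) was past 1.5-fold in cluster 1, none in cluster 2 and H2-T22 (-0.66) in cluster 3, with medians of -0.31, -0.49 and -0.58.

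The other 2 lists held genes of peptide loading and trimming and of the proteasome. Of 10 loading and trimming genes, none was past 1.5-fold, with a median of -0.06. The chaperones ranged from calreticulin (Calr, -0.33) to calnexin (Canx, 0.15) and Hspa5 (0.22), and the peptidase Npepps was at -0.26. Of 10 proteasome genes, none was past 1.5-fold either, with a median of 0.08. The interferon-induced activator subunit Psme1 (-0.50) and immunoproteasome subunit Psmb10 (-0.48) were the lowest, and Psmb5 (0.38), the constitutive subunit that Psmb8 replaces, and the activator Psme3 (0.46) were the highest. The third interferon-induced gene of the list, Psme2, was at -0.34, and the other 7 were at or above 0.00.

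Under anti-PD1 in A159V tumors, 2 of the 12 interferon genes were higher by 1.5-fold in tumor-like cells, Irf1 (0.69) and Cd274 (0.64), where 0.651% of all genes were, with a list median of 0.26. Inside clusters 1, 2 and 3 Irf1 was at 0.66, 0.75 and 0.38 and Cd274 at 0.55, 0.29 and 0.45, so Irf1 alone of the pair was past 1.5-fold, and in clusters 1 and 2. The medians of the other lists were 0.24 for heavy chains (3 tested, none past 1.5-fold), 0.24 for loading and trimming (10 of 10 above 0, none past) and 0.09 for the proteasome (none past).

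Levels were next set across cell classes. Tumor-like cells of WT IgG were near the middle for H2-D1, H2-K1 and Psmb9, lower for other members and last for B2m and H2-T23. Of the 7 classes with at least 50 cells, tumor-like cells ranked 3 for H2-D1, 4 for H2-K1 and Psmb9, 5 for Tap1, Tapbp and Psmb8, 6 for Tap2 and Nlrc5, and 7 for B2m and H2-T23. In A159V IgG, where 8 classes had enough cells, they ranked 8 for H2-K1, H2-D1, H2-T23, B2m and Tapbp, 7 for Tap1, Tap2 and Nlrc5, and 6 for Psmb8 and Psmb9. In A159V anti-PD1 they ranked 5 to 7 of 8 for the members other than B2m and H2-T23, which stayed at 8. In A159V IgG, the tumor-like and neutrophil-like levels of H2-K1, Tap2, Psmb8 and Psmb9, and the tumor-like and stromal-like levels of Tap2 and Tapbp, could not be told apart by counting error. In WT IgG the same held for H2-D1, Tap2 and Psmb8 (with neutrophil-like cells), Tap1 and Psmb9 (with NK-like cells) and Tapbp (with T-like and stromal-like cells). In A159V anti-PD1 it held for all members but H2-K1, H2-T23 and B2m with at least 1 neighbouring class, so single ranks are uncertain. Only classes next to each other in the order were compared in this way, so further overlaps may exist.

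Psmb8, Psmb9, Tap1, Nlrc5 and B2m each had the same leading class in all 4 libraries, and the other members did not. Dendritic-like cells, which present antigen to T cells, had the highest Psmb8, Psmb9 and Tap1 levels of the named classes with at least 50 cells in all 4 libraries, although in A159V IgG Tap1 in T-like cells was within counting error of it. Psmb8 was there at 723 CPM in WT IgG and 406 CPM in WT anti-PD1, and at 761 and 698 CPM in the A159V counterparts. T-like cells had the highest Nlrc5 in all 4 libraries, at 290 to 327 CPM. In A159V IgG the T-like and neutrophil-like Nlrc5 levels overlapped within counting error.

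B2m was highest in macrophage-like cells in all 4 libraries, at 4388, 5462, 3930 and 4120 CPM. H2-K1 was highest in T-like cells in 3 libraries, from 2925 to 3258 CPM (within counting error of B or plasma-like cells in A159V IgG), and in macrophage-like cells in WT anti-PD1. Stromal-like cells had the lowest Nlrc5 in each library, under 20 CPM. Their H2-K1 level, 1431 to 1855 CPM, was below that of T-like cells in each library.

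H2-T23 set the tumor-like cells apart most. It lay from 79.5 CPM, in stromal-like cells of A159V anti-PD1, to 371 CPM, in B or plasma-like cells, over the immune and stromal classes, and from 3.37 to 8.50 CPM in tumor-like cells of 3 libraries.

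**Figure D3:**
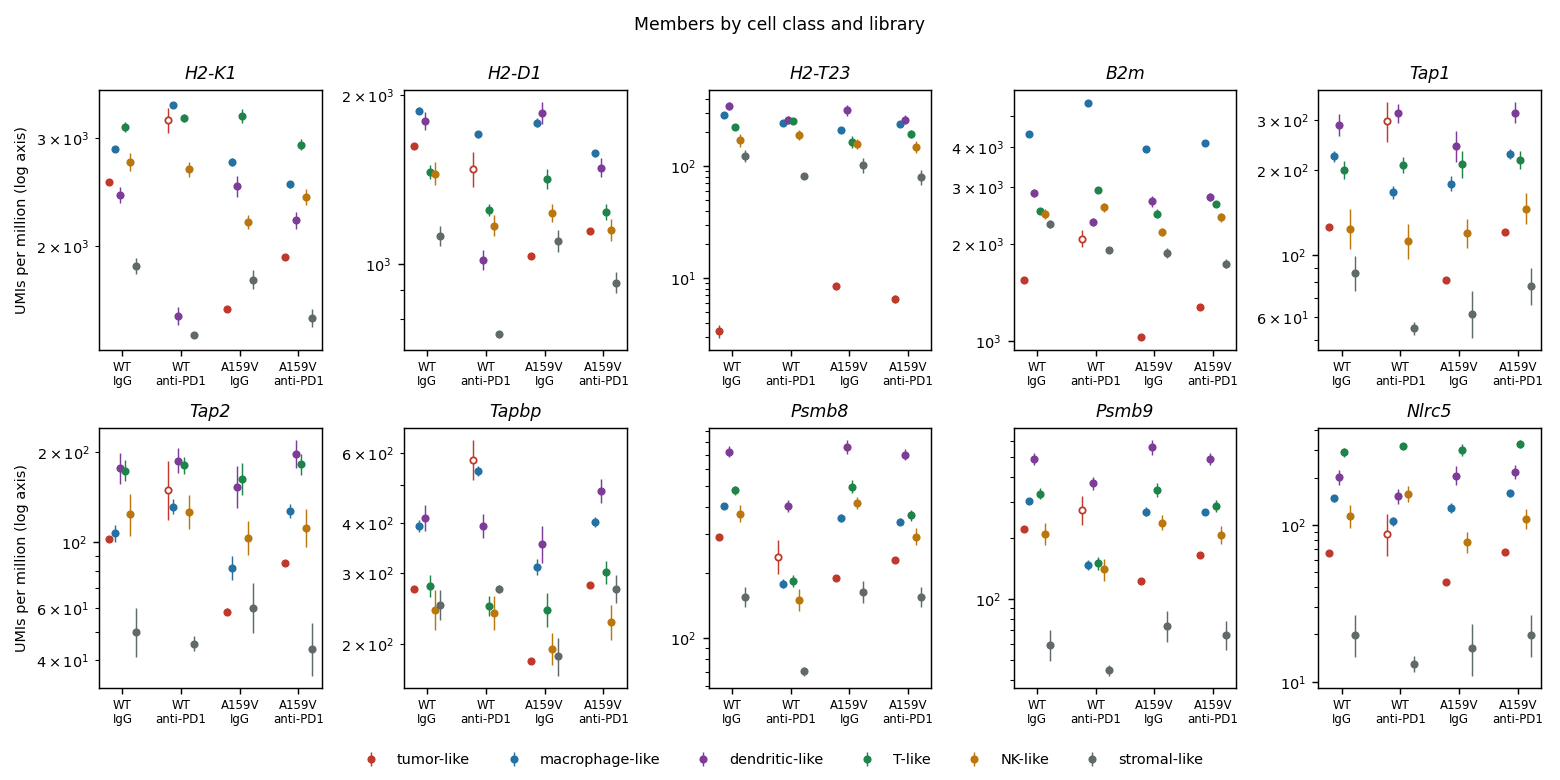
Level of each member (CPM, log axis) in 6 cell classes, 1 point per library with its 95% interval for counting error. The open symbol is the 14 tumor-like cells of WT anti-PD1, and H2-T23 at 0 CPM in them is not drawn. H2-T23 lies under 10 CPM in tumor-like cells and far above that in the other classes, while H2-K1 spans 1431 to 3395 CPM over the classes and libraries drawn.

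In macrophage-like cells the members differed less between A159V IgG and WT IgG. All 10 were below 0, none was lower by 1.5-fold, where 2.58% of the 7868 genes tested were lower and 2.01% higher, and the median log2 ratio was -0.19 against 0.00 over all genes. H2-T23 was the lowest, at -0.44 (-0.54 to -0.34), from 287 CPM in WT IgG to 212 in A159V IgG. Tap2 (-0.38), Tapbp (-0.34) and Tap1 (-0.32) followed, and H2-K1 and H2-D1 were both at -0.07. Within 5 macrophage-like clusters the medians were -0.14, -0.30, -0.00, -0.09 and 0.05, so the small difference was not shared by every cluster. Median depth was 3514 UMIs per macrophage-like cell in WT IgG and 2226 in A159V IgG, and its part in these small differences was not tested.

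Under anti-PD1 in A159V tumors, macrophage-like cells had 6 of 10 members above 0 and a median of 0.12 against 0.01 over all genes. Tap2 was higher by 1.5-fold (0.63, 0.48 to 0.78), from 81.9 to 127 CPM, where 3.33% of the 7876 genes tested were higher and 2.31% lower by that much. Tapbp (0.38), Tap1 (0.35) and Nlrc5 (0.30) were also above 0, and so was the heavy chain H2-T23 (0.17, 0.08 to 0.27), while the classical heavy chains H2-D1 (-0.18) and H2-K1 (-0.12) were below it. Within the 5 clusters the medians were 0.11, 0.37, -0.09, 0.22 and -0.05.

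In WT tumors, anti-PD1 macrophage-like cells differed from IgG ones across the transcriptome, with 19.2% of the 8293 genes tested higher and 14.7% lower by 1.5-fold. Psmb8 went from 406 to 178 CPM, a log2 ratio of -1.18 (-1.27 to -1.10), and Psmb9 from 304 to 147 CPM, -1.04 (-1.13 to -0.94). They were the 2 members past 1.5-fold. Nlrc5 was at -0.48 and Tap1 at -0.42, while Tapbp (0.46), B2m (0.32), Tap2 (0.29) and H2-K1 (0.24) were above 0, and the median of the 10 was -0.20 against 0.07 over all genes.

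The macrophage-like cells of these 2 libraries were of different clusters. A cluster led by Mmp12, Ccl8, Pf4 and Arg1 held 1436 of 1809 macrophage-like cells in WT anti-PD1 (79.4%) and 72 in WT IgG (3.10%). Inside the 3 clusters with at least 50 cells in both libraries the medians were 0.68, 0.10 and 0.52, above 0 in each. Psmb8 was at 0.05, -0.30 and -0.54 in them and Psmb9 at 0.10, 0.28 and -0.44. The low pooled values of Psmb8 and Psmb9 therefore did not hold within clusters at that size.

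**Figure D4:**
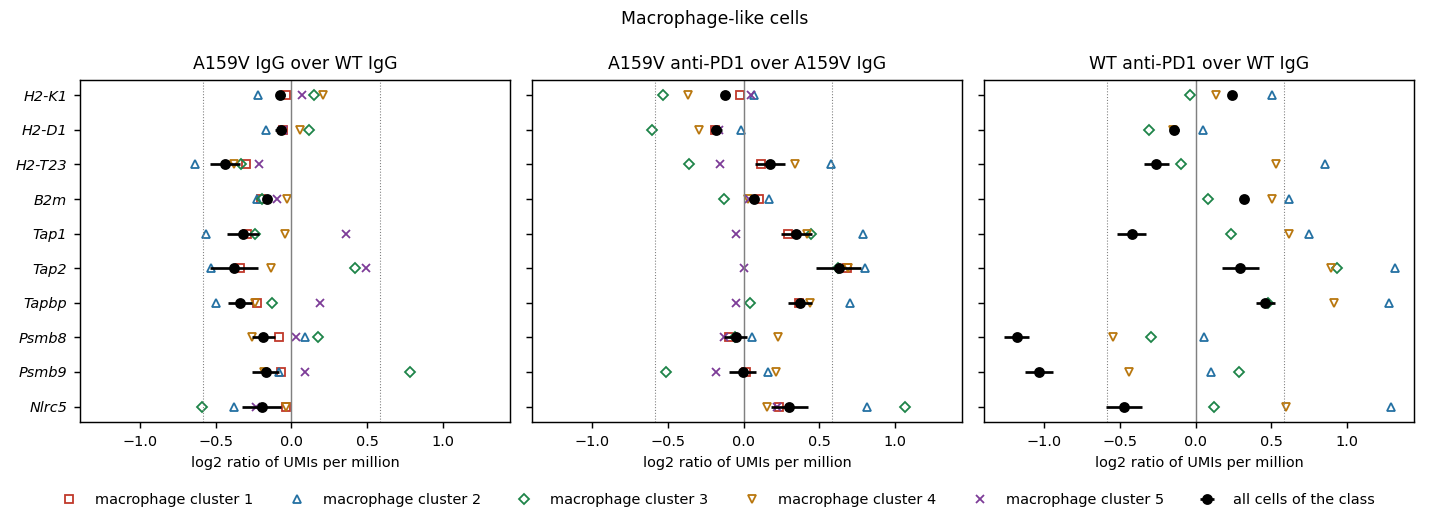
Log2 ratio of each member in macrophage-like cells for the 3 comparisons. Black points with bars are all macrophage-like cells with the 95% interval for counting error, coloured points are single clusters with at least 50 cells in both libraries, and dotted lines mark 1.5-fold. For WT anti-PD1 over WT IgG, Psmb8 (-1.18) and Psmb9 (-1.04) lie far below their own clusters.

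Within WT tumors, Psmb8 was lower after anti-PD1 in the 6 classes with enough cells, but not in dendritic-like cells gated by markers in place of clusters, where its log2 ratio was 0.10. The log2 ratio was -1.38 (-1.50 to -1.27) in T-like cells, -1.31 (-1.53 to -1.09) in NK-like cells, -1.13 (-1.30 to -0.97) in stromal-like cells, -1.12 (-1.63 to -0.61) in neutrophil-like cells and -0.83 (-0.96 to -0.70) in dendritic-like cells. Psmb9 was at -1.13 in T-like, -0.58 in NK-like, -0.40 in dendritic-like and stromal-like, and 0.10 (-0.64 to 0.83) in neutrophil-like cells. Most of the 10 proteasome genes of the list were below 0 in that comparison too, 8 or 9 of 10 in each class, with medians from -0.83 in T-like cells to -0.51 in macrophage-like cells, where the medians over all genes ranged from -0.17 to 0.33. The make-up of some classes differed as well. A neutrophil-like cluster held 556 of 563 cells in WT anti-PD1 and 10 of 97 in WT IgG. A stromal-like cluster held 555 of 1608 cells in WT anti-PD1 and 18 of 147 in WT IgG. Among these classes, comparisons within clusters were made for macrophage-like cells only. The part of the library and of this make-up in these values was not tested.

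In the remaining classes the members had mixed signs. Between the IgG libraries the median log2 ratio of the 10 members, A159V over WT, was 0.01 in T-like, -0.02 in dendritic-like, -0.17 in stromal-like, -0.21 in NK-like and -0.32 in neutrophil-like cells, the last from 100 and 97 cells. Over all genes tested it was 0.05, 0.04, 0.02, -0.03 and 0.23 in the same classes. For A159V anti-PD1 over A159V IgG it ranged from -0.13 in stromal-like to 0.12 in NK-like cells, and for WT anti-PD1 over WT IgG from -0.49 in stromal-like and -0.40 in dendritic-like to 0.05 in T-like cells, where the medians over all genes were 0.08, 0.22 and 0.22.

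Tapbp had 1 direction in 7 classes in both A159V comparisons. Between the IgG libraries it was lower in A159V in tumor-like (-0.60), macrophage-like (-0.34), dendritic-like (-0.22), T-like (-0.20), NK-like (-0.32), stromal-like (-0.43) and neutrophil-like cells (-0.78). Within A159V tumors it was higher after anti-PD1 in the same classes, at log2 ratios of 0.63, 0.38, 0.44, 0.31, 0.22, 0.56 and 0.42, and of these intervals the one for neutrophil-like cells reached below 0. In B or plasma-like cells, which had 63 and 81 cells, Tapbp was at 336 CPM (248 to 446) in A159V IgG and 296 (236 to 367) in A159V anti-PD1, so it was not higher there and the intervals overlapped. Inside macrophage-like cluster 5 both signs were turned, at 0.19 and -0.05. The 2 comparisons share the A159V IgG library.

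**Figure D5:**
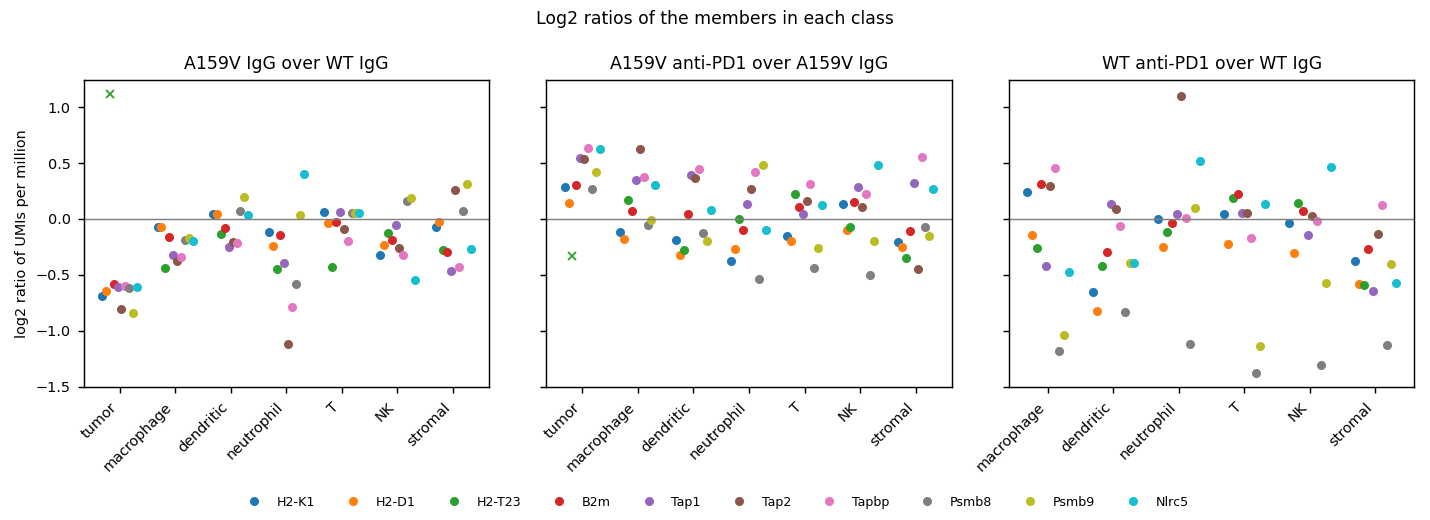
Log2 ratio of each member by cell class for the 3 comparisons, with crosses where a gene had under 10 CPM in both libraries. Tumor-like cells stand to the low side for A159V IgG over WT IgG, at -0.85 to -0.59 for 9 members. Their median is -0.62, while the medians of the other classes lie from -0.32 to 0.01. Single members of neutrophil-like cells run from -1.12 to 0.40, so some reach into or below the tumor-like range.

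Genes whose levels followed the members closely were sought over 31 profiles, each a class in a library, among 8332 genes. Pearson's r with the mean of the members was 0.90 for Crlf2, a cytokine receptor chain, 0.87 for Tnfaip8l2, and 0.86 for Cyth4 and Orai1. The profiles share libraries and differ in depth. Among the members themselves, r with the mean of the other 9 ran from 0.56 for H2-T23 and 0.61 for H2-K1 to 0.86 for Tap1.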

How the data were processed

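Each of the 4 libraries was deposited as a 10x 3′ count matrix, and the deposited values are counts of UMIs per gene and cell, made by the authors with Cell Ranger on mm10 (7.2.0 in the headers of the deposited matrices, 5.0.1 in the submitters' processing notes). The authors' later removal of ambient RNA and doublets and their cell labels were not used here. The members and gene lists were chosen with earlier results of these data known.

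Cells with more than 500 genes were kept, predicted doublets removed (0.8% per 1000 cells), and all libraries clustered together (2000 variable genes without members and listed genes, 20 principal components, 20 neighbors, Leiden resolution 1; scikit-learn 1.9.0, leidenalg 0.10.2). A cluster was named from at least 3 detected markers. UMIs were summed per class and library and divided by the class total to give CPM, with 95% intervals from the exact Poisson limits. Ratios are log2((CPM + 1)/(CPM + 1)). A gene was tested at 10 CPM or more in 1 of the 2 libraries, and a profile needed 50 cells. Shares were counted after thinning to 1500 UMIs. On simulated counts, 200 genes were changed 2-fold in each of the 5 tumor-like and macrophage-like comparisons, over 7800 to 8604 genes. Of these 200, 99.5% to 100% were recovered past 1.5-fold. The simulation held counting error alone and no variation between libraries. Named genes were all 10 members, up to 2 highest and 2 lowest of each list, and the 5 genes most like the members, of which 1 is not reported here. Alternatives covered filters, doublets, clustering, gating by markers, stray RNA, scaling, pseudocount, weight of cells and thinning. Comparisons within clusters were added after seeing the data.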

Additional observations from a re-analysis of the deposited data

Results flagged for a closer look

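Members were picked out where 2 log2 ratios under the same contrast had opposite signs over the whole of both counting-error intervals. Tumor-like cells were set against macrophage-like cells, and the 2 genotypes were set against each other in macrophage-like and in stromal-like cells. No stromal-like pair was picked out. With 1 library per group none of these differences was tested. Under anti-PD1 in A159V tumors, relative to IgG, tumor-like and macrophage-like cells went opposite ways for the heavy chains: H2-K1 was at 0.28 and -0.12 (a difference of 0.40), H2-D1 at 0.15 and -0.18 (0.33), and H2-T23 at -0.33 and 0.17 (-0.51). Those are values of whole classes. Inside tumor-like cluster 2, H2-K1 was at -0.06, H2-D1 at -0.09 and H2-T23 at 0.48 (-0.15 to 1.11). Inside macrophage-like clusters 2 and 5, H2-K1 was at 0.07 and 0.05. H2-T23 was at -0.36 and -0.16 inside macrophage-like clusters 3 and 5. The remaining clusters kept the signs of the whole class. For A159V IgG over WT IgG, H2-T23 was at 1.12 in tumor-like and -0.44 in macrophage-like cells, a difference of 1.56. The tumor-like H2-T23 values rest on 216 UMIs in WT IgG and 755 in A159V IgG.

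In macrophage-like cells, the anti-PD1 over IgG ratios of 4 members had opposite signs in WT and A159V tumors. WT minus A159V was 0.36 for H2-K1 (0.24 and -0.12), -0.43 for H2-T23 (-0.26 and 0.17), -0.77 for Tap1 (-0.42 and 0.35) and -0.78 for Nlrc5 (-0.48 and 0.30). The WT anti-PD1 macrophage-like cells were mostly of 1 cluster, and inside the 3 clusters that could be compared Tap1 was at 0.75, 0.23 and 0.62 and Nlrc5 at 1.29, 0.12 and 0.59, on the other side of 0 from the pooled values.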

How the results depend on the processing

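No paired analysis was possible because each group was 1 library. In tumor-like cells, A159V IgG over WT IgG, the 9 tested members stayed below 0 under all 14 other settings and within the 3 clusters. Their median (-0.62) moved to -0.54 with each library clustered on its own, -0.50 with a marker gate, -0.53 with median-of-ratios scaling, -0.67 as the mean of the cells' own CPM, and -0.40, -0.37 and -0.45 within clusters 1 to 3. The number lower by 1.5-fold (9) became 2 with own clustering, 0 with the gate, 3 with median-of-ratios scaling, 5 with a pseudocount of 10 CPM, and 0, 0 and 2 within clusters. With no filter on low values 1 member, H2-T23, was higher (0 with it). For A159V anti-PD1 over A159V IgG the median (0.42) moved to 0.36 with doublets kept, 0.48 with the gate, 0.37 with median-of-ratios scaling, 0.36 as the mean of cells' CPM, 0.36 with no filter, and 0.14 and 0.21 within clusters 2 and 3. The number higher (2) became 4 with the gate, 1 with median-of-ratios scaling, 1 with a pseudocount of 10 CPM and 0 within cluster 3. In macrophage-like cells, A159V IgG over WT IgG (-0.19) was -0.30, -0.0044 and 0.048 within clusters 2, 3 and 5. A159V anti-PD1 over A159V IgG (0.12) was 0.37, -0.092, 0.22 and -0.052 within clusters 2 to 5. WT anti-PD1 over WT IgG (-0.20) was -0.28 with median-of-ratios scaling and 0.68, 0.10 and 0.52 within clusters 2 to 4. For that contrast, the members past 1.5-fold whose signs turned were Psmb8 in macrophage-like cells (-1.18 to 0.053 within cluster 2), Psmb9 there (-1.04 to 0.10 within cluster 2 and 0.28 within cluster 3), Psmb8 in dendritic-like cells (-0.83 to 0.10 with the gate) and H2-T23 in stromal-like cells (-0.59 to 1.52 with own clustering and 0.56 with the gate). Smaller ratios turned too: in dendritic-like cells H2-T23 (-0.42) became 2.65 with the gate, with B2m, Tapbp, Psmb9 and Nlrc5 also turning, and Tap1 and Tap2 turned with median-of-ratios scaling. In macrophage-like cells 13 of 30 ratios within clusters had the other sign. The cause was not tested. Subtracting stray tumor RNA from WT anti-PD1 macrophage-like cells was not run, since 14 tumor-like cells were too few to estimate it. Depth limits H2-T23 in tumor-like cells and every member in neutrophil-like cells, where 97 and 100 cells gave wide intervals.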

Other observations

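The lists described for tumor-like cells were also read in macrophage-like cells. For WT anti-PD1 over WT IgG, the 6 tested genes among other class I heavy chains and relatives were all below 0, with a median log2 ratio of -0.93, while the 10 loading and trimming genes had a median of 0.52, with 2 below 0. For A159V anti-PD1 over A159V IgG the same lists had medians of -0.32 (6 of 6 below 0) and 0.39 (none below 0). For A159V IgG over WT IgG they were at -0.04 and -0.18. Over all genes tested the medians were 0.07, 0.01 and 0.00 in these comparisons, in the order given. The 2 anti-PD1 comparisons use different control libraries, and neither has a replicate. The cluster led by Mmp12, Ccl8, Pf4 and Arg1 held 79.4% of macrophage-like cells in WT anti-PD1 and 3.10% in WT IgG. These lists were not compared within macrophage-like clusters, so the part of that make-up was not tested.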
